A study of Homo sapiens with 14 samples.

Results

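Small nucleolar RNA (snoRNA) genes were taken as every gene of the expression table whose symbol starts with SNORA or SNORD, which gave 129 of 13734 genes. Of these, 50 carried a SNORA symbol and belong to the H/ACA class, and 79 carried a SNORD symbol and belong to the C/D class. The cells were MDA-MB-231, an established human breast cancer line, grown in DMEM:F12 with fetal bovine serum. Total RNA was column-purified with an RNeasy Mini kit and made into stranded libraries after removal of ribosomal RNA with Ribo-Zero Gold. The series concerns BET proteins, which read acetylated histones, and the transcription driven by YAP and TAZ, co-activators that Hippo signalling restrains.

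There were 14 libraries in 7 groups of 2. YAP/TAZ siRNA mix 1 and mix 2 were transfected with Lipofectamine RNAiMAX 48 h before harvest. BRD siRNA mix A and mix B, against the BRD genes, BRD2 and BRD3 among them, were transfected 72 h before harvest. Control siRNA was the reference for both knockdowns, and the labels give no harvest time for it. JQ1, a BET bromodomain inhibitor, was added at 1 µM for 24 h, and DMSO was its reference. The labels do not say that replicates were separate cultures, so p-values measure only the spread between these libraries, which may be technical, and all results come from 1 cell line.

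Most human snoRNAs are cut from introns of a host gene and work as guides inside a protein particle. C/D snoRNAs bind FBL, NOP56, NOP58 and NHP2L1 and direct 2′-O-methylation, and H/ACA snoRNAs bind DKC1, NHP2, NOP10 and GAR1 and direct pseudouridylation, mainly of ribosomal RNA. Many hosts are ribosomal protein genes or long noncoding RNAs such as GAS5 and the SNHG genes. Column kits of this type bind short RNAs poorly, and reads from a mature snoRNA and from its unspliced host intron cannot be told apart in these values.

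The sequences below show members that rose and members that fell with YAP/TAZ siRNA, so that the difference in size and layout between the classes can be seen beside the values. They are GENCODE 29 transcripts at GRCh38 positions, written as DNA. Capitals mark box C (TGATGA) and box D (CTGA) in the C/D genes, and box H (ANANNA) and the ACA box in the H/ACA genes. SNORD17, SNORA63 and SNORA49 rose, and SNORD110, SNORA24 and SNORA76C fell.
SNORD17 (chr20:17962710-17962946, minus strand): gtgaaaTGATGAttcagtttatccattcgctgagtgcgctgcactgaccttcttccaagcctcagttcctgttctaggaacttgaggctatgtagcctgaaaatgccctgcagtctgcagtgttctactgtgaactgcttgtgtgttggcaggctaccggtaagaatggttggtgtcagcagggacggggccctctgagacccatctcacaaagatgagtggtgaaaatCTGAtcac
SNORD110 (chr20:2654212-2654286, plus strand): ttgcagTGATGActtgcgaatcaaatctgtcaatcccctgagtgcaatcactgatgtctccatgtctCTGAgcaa
SNORA63 (chr3:186787300-186787431, plus strand): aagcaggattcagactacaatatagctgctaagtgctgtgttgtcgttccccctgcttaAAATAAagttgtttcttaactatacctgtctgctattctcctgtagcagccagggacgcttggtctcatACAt
SNORA49 (chr12:132031224-132031359, plus strand): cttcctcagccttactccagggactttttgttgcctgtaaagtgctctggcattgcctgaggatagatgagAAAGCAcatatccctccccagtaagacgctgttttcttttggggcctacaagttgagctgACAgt
SNORA24 (chr4:118279190-118279320, plus strand): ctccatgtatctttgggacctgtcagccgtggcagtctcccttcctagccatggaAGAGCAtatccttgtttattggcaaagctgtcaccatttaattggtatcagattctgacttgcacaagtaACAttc
SNORA76C (chr17:64146339-64146471, plus strand): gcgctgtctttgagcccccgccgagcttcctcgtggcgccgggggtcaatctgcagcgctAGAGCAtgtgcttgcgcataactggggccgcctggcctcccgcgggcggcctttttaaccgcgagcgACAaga

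SNORD17 is 237 bases long and SNORD110 is 75 bases long, and in both the marked boxes C and D lie close to the ends. The H/ACA genes shown are 131 to 136 bases long, with the ACA box at most 3 bases from the 3′ end. SNORD17 lies in SNX5, SNORD110 in NOP56, SNORA63 in EIF4A2, SNORA49 in EP400, SNORA24 in SNHG8 and SNORA76C, now named SNORA50C, in SNHG25. Sequences were matched for 65 C/D and 49 H/ACA members, read on the transcribed strand. TGATGA lay in the opening part of 42 of 65 C/D sequences (64.6%) and of 0 of 49 H/ACA sequences, and CTGA lay in the last 20 bases of 64 C/D sequences (98.5%) and 6 H/ACA sequences (12.2%). ANANNA lay in the middle 40% of 48 H/ACA sequences (98.0%) and 25 C/D sequences (38.5%), and ACA in the last 8 bases of 45 H/ACA sequences (91.8%) and 6 C/D sequences (9.23%). A match describes letters and is not evidence of a working box. Annotated lengths ran from 121 to 249 bases in the H/ACA class (median 134) and from 60 to 237 bases in the C/D class (median 75). Of the 129 members, 127 lie inside one of 60 host genes, 43 of them in noncoding hosts and 42 in ribosomal protein genes. No host was found for SNORA22 and SNORA7B.

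Depth ran from 15741695 to 37311326 reads in genes over the libraries, with a median of 23539829. Values are in scaled RPM, reads per 1e6 of a library size set by the authors. A single read was worth 0.0276 to 0.0602 scaled RPM, so a value of 1 rested on 16.6 to 36.2 reads. Of the markers of the line, VIM had 2894 to 6615 scaled RPM and AXL 353 to 2451. MSN had 576 to 1077, CAV1 280 to 818 and CD44 73.6 to 359. The stromal marker COL1A1 had 1.91 to 17.2 scaled RPM and the endothelial marker PECAM1 0.602 to 14.1. The leukocyte markers PTPRC and CD3E and the luminal markers ESR1, PGR and CDH1 were not listed. Of the other epithelial and luminal markers, KRT19 had 204 to 1877 scaled RPM over the libraries, EPCAM 4.05 to 18.6 and GATA3 1.15 to 2.10. YAP1 had 18.6 to 24.2 scaled RPM in the YAP/TAZ siRNA libraries, against 174 to 190 in the control siRNA libraries, and WWTR1, which encodes TAZ, had 12.7 to 17.2 against 126 to 135. BRD2 had 154 to 204 scaled RPM in the BRD siRNA libraries, against 251 to 252 in the control siRNA libraries, and BRD3 had 9.05 to 10.6 against 29.7 to 32.5. A limma model with a term per group was fitted to log2(scaled RPM + 1) of 13674 genes, all 129 snoRNA genes among them, and a gene is called at a Benjamini-Hochberg adjusted p under 0.05. On this scale the fold changes of low genes are understated.

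The snoRNA genes were mostly low. The mean over all libraries ran from 0.553 to 64.4 scaled RPM (median 2.19), and 62 of the 129, 31 in each class, stayed at 1 or above in every library. Per kilobase of annotated length, the median level was 21.7 scaled RPM in the H/ACA class and 24.8 in the C/D class. SNORA63 and SNORA48, guides for pseudouridines of the large-subunit rRNA, led the H/ACA class at 488 and 413 scaled RPM per kilobase. SNORD17, a guide for the large-subunit rRNA, led the C/D class at 237 scaled RPM per kilobase, followed by SNORD10 at 191, SNORD29 at 166 and SNORD49A at 164. SNORA53 was the lowest at 3.59 scaled RPM per kilobase. The snoRNAs SNORD3A, SNORD118, SNORD13, SNORA73A and SNORA73B were not analysed here.

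The summed level of the C/D snoRNA genes was lowest in the siRNA knockdowns, the summed H/ACA level did not follow that order, and DMSO was highest in both classes. The summed C/D level was 243 ± 28.7 scaled RPM in YAP/TAZ siRNA mix 1, 254 ± 19.2 in YAP/TAZ siRNA mix 2, 231 ± 37.8 in BRD siRNA mix A and 277 ± 23.6 in BRD siRNA mix B, against 327 ± 22.7 in control siRNA (SD, n = 2 each). It was 348 ± 17.2 scaled RPM in JQ1, against 453 ± 5.87 in DMSO (SD, n = 2 each). All 8 knockdown libraries lay under both control siRNA libraries, and both JQ1 libraries lay under both DMSO libraries. The summed H/ACA level was 386 ± 42.9 and 402 ± 11.0 scaled RPM in YAP/TAZ siRNA mixes 1 and 2, 308 ± 21.5 and 357 ± 45.1 in BRD siRNA mixes A and B, and 341 ± 13.6 in control siRNA, and it was 370 ± 6.34 in JQ1, against 442 ± 20.8 in DMSO (SD, n = 2 each). The H/ACA sums of the YAP/TAZ siRNA libraries lay above both control siRNA libraries, those of BRD siRNA mix A lay below them, 1 of mix B lay above and 1 below them, and the JQ1 libraries lay under both DMSO libraries. The H/ACA median over genes, which the few abundant genes do not set, was 2.30 and 2.45 scaled RPM in YAP/TAZ siRNA mixes 1 and 2 and 2.29 and 2.99 in BRD siRNA mixes A and B, against 3.20 in control siRNA, and it was 3.00 in JQ1, against 4.26 in DMSO. By this measure all YAP/TAZ siRNA and BRD siRNA mix A libraries lay under both control siRNA libraries, and BRD siRNA mix B overlapped them. In bulk RNA, fewer cells of a type and less RNA per cell cannot be told apart.

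**Figure D1:**
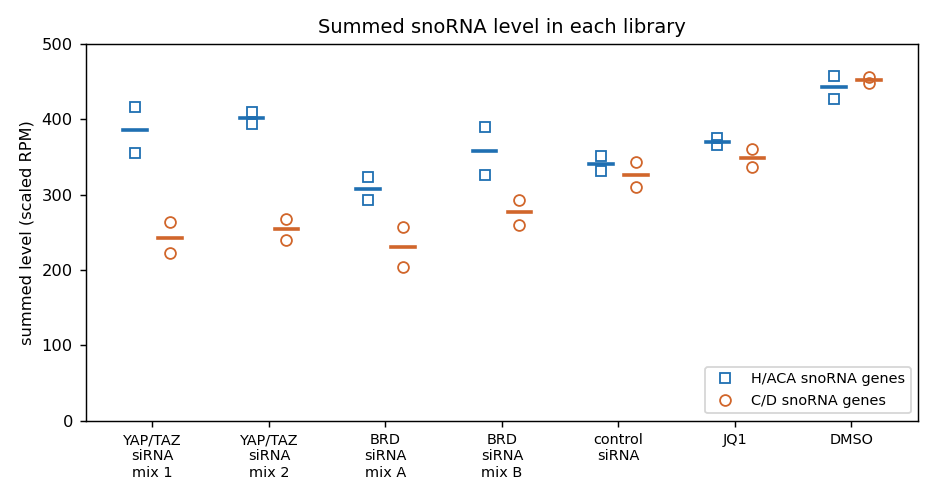
Summed level in scaled RPM of the 50 H/ACA genes (squares) and the 79 C/D genes (circles) in each library, with the mean of each group of 2 as a bar. The C/D sums of all knockdown libraries lie below the control siRNA libraries, and DMSO is highest in both classes.

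A limma F test over the 7 groups called 122 of the 129 snoRNA genes, beside 98.6% of all genes, so a difference somewhere among the groups was the rule in this table. The group with the highest mean was DMSO for 63 of 79 C/D genes and 27 of 50 H/ACA genes. The lowest group was a YAP/TAZ siRNA mix for 56 C/D genes and 15 H/ACA genes, and BRD siRNA mix A for 15 C/D and 16 H/ACA genes. The genes not called by the F test were SNORA23, SNORA27, SNORA38, SNORA53, SNORA80B, SNORD42A and SNORD94.

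YAP/TAZ siRNA lowered most C/D genes, while the share of H/ACA genes called lower lay near that of all genes. Against control siRNA, 59 of 79 C/D genes were called lower and 4 higher, whereas 20 of 50 H/ACA genes were lower and 14 higher. Over all genes tested, 43.1% were called higher and 35.9% lower. The median log2 fold change was -0.62 in the C/D class and -0.16 in the H/ACA class, beside 0.073 over all genes. No test was made of the difference between the classes, since genes are not replicates of a condition. The H/ACA median was 0.21 among the 23 H/ACA genes that reached 5 scaled RPM in at least 2 libraries. That filter can admit a gene through the group where it is high, so this median gives no separate support. For example, SNORA49 reached 5 only in YAP/TAZ siRNA libraries (7.44, 5.07 and 5.61 scaled RPM).

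SNORD29, a guide for the large-subunit rRNA that lies in the SNHG1 gene, fell most. It had 4.17, 3.24, 3.10 and 4.13 scaled RPM in the YAP/TAZ siRNA libraries, against 14.1 and 14.4 in the control siRNA libraries, a log2 fold change of -1.72 (SE 0.102, adjusted p = 2.08e-12). Named falls and rises were chosen among called genes with every treated library on the same side of the controls. The lack of overlap follows from that choice and is not a separate result. SNORD46, also a guide for the large-subunit rRNA, had 1.90, 2.56, 1.78 and 2.66 scaled RPM in YAP/TAZ siRNA, against 8.74 and 7.89 in control siRNA (log2 fold change -1.54, SE 0.127). SNORD110, SNORD25 and SNORD27, guides for the small-subunit rRNA, fell by 1.32, 1.25 and 1.19 on the log2 scale, with adjusted p of 6.61e-09, 1.05e-07 and 9.89e-09. In the H/ACA class, SNORA76C had 5.58, 3.88, 5.86 and 5.14 scaled RPM in YAP/TAZ siRNA, against 17.1 and 17.2 in control siRNA (log2 fold change -1.58, SE 0.103, adjusted p = 1.11e-11). SNORA65, SNORA61, SNORA24 and SNORA51 fell by 1.16, 1.13, 1.03 and 0.95 on the log2 scale. All of these were chosen with both control siRNA libraries above every YAP/TAZ siRNA library.

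Of the 18 genes that rose, 13 had a mean of at least 5 scaled RPM over all libraries. SNORA63 had 91.5, 74.5, 87.0 and 75.4 scaled RPM in YAP/TAZ siRNA, against 50.8 and 44.4 in control siRNA, a log2 fold change of 0.77 (SE 0.0868, adjusted p = 6.24e-08). SNORA49, SNORA57, SNORA54 and SNORA12 rose by 0.67, 0.60, 0.59 and 0.55 on the log2 scale. SNORA12 no longer passed without control siRNA replicate 2 (log2 fold change 0.28, adjusted p = 0.0760). SNORA48 averaged 64.8 ± 5.37 scaled RPM in YAP/TAZ siRNA (SD, n = 4) and 45.3 ± 0.338 in control siRNA (SD, n = 2). The C/D genes that rose were SNORD97, which guides a methylation of the elongator methionine tRNA, SNORD10, which guides U6 snRNA, SNORD17 and SNORD15B. SNORD97 had 19.6, 14.3, 18.0 and 17.4 scaled RPM in YAP/TAZ siRNA, against 10.6 and 11.3 in control siRNA (log2 fold change 0.62, SE 0.103). SNORD17 had 75.9, 58.3, 77.1 and 69.2 scaled RPM in YAP/TAZ siRNA, against 53.0 and 46.3 in control siRNA (log2 fold change 0.48, SE 0.101, adjusted p = 0.000198). Both were named as rises by a rule that required no overlap between the groups. Several rises depended on which control was used. With DMSO in place of control siRNA, 7 snoRNA genes instead of 18 were called higher and 97 lower, beside 44.4% and 39.8% of all genes, and the log2 fold change of SNORA63 was 0.16 (adjusted p = 0.0907), that of SNORA57 0.10 (adjusted p = 0.248) and that of SNORD97 0.045 (adjusted p = 0.689).

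**Figure D2:**
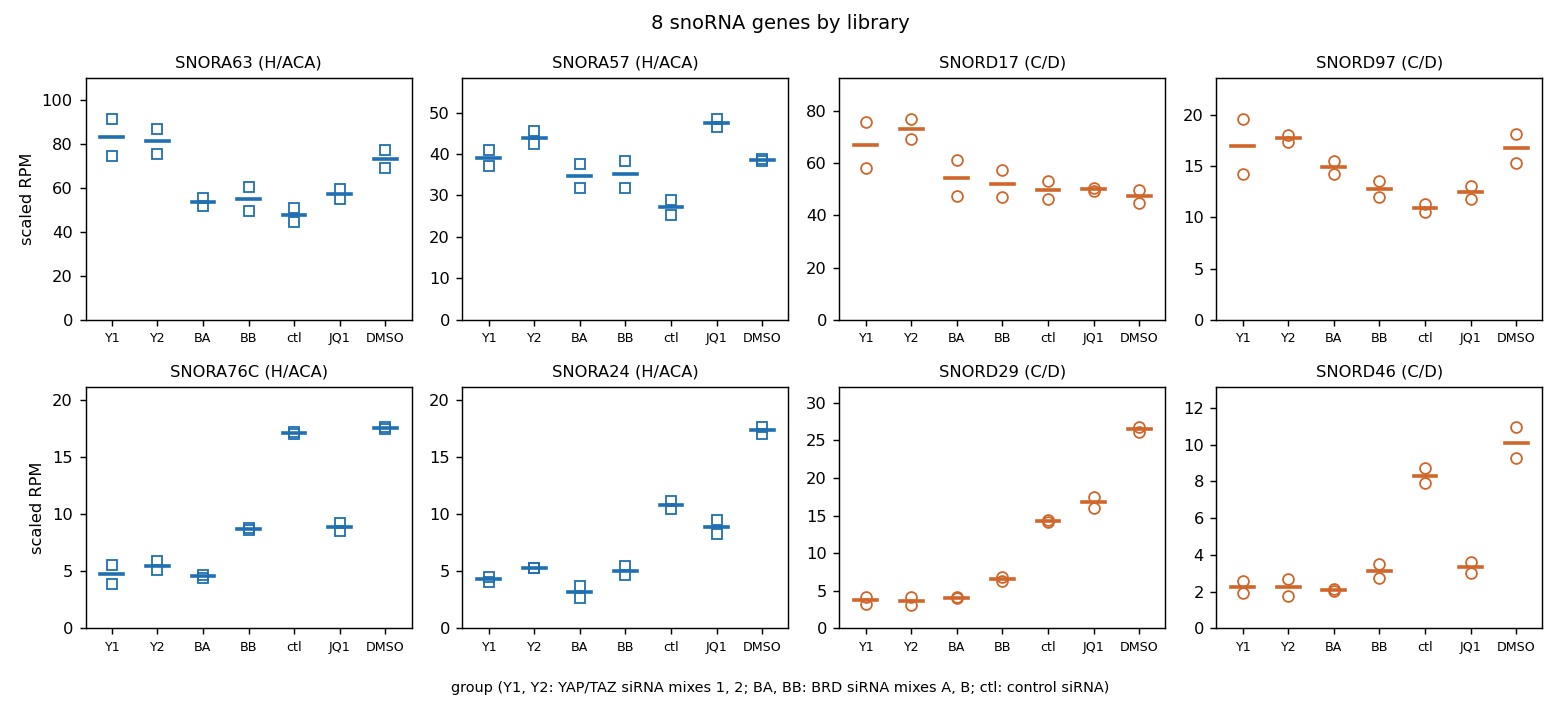
Scaled RPM of 8 snoRNA genes in each library (open symbols) with the group mean (bars), for both siRNA mixes of each knockdown, control siRNA, JQ1 and DMSO. In the lower row the knockdown libraries of SNORA76C, SNORA24, SNORD29 and SNORD46 all lie under control siRNA. In the upper row the YAP/TAZ siRNA libraries lie above it. The genes were named by a rule that required such a lack of overlap.

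All 4 C/D genes that rose with YAP/TAZ siRNA were long for their class. SNORD15B lost its call after quantile normalization (log2 fold change 0.20, adjusted p = 0.112) and with DMSO as the control (0.092, adjusted p = 0.421), and SNORD97 with DMSO as the control, as given above. A split by length, chosen after the values were seen, set apart the C/D genes at least as long as the shortest H/ACA gene, 121 bases. These were SNORD10, SNORD15A, SNORD15B, SNORD17, SNORD22, SNORD94 and SNORD97, at 126 to 237 bases. Of these 7, 4 were called higher and 2 lower with YAP/TAZ siRNA, with a median log2 fold change of 0.40, while 0 of the 72 shorter C/D genes were called higher and 57 lower, with a median of -0.64. In the BRD siRNA comparison, 2 of the 7 were higher and 1 lower (median 0.09), beside 0 and 49 of the 72 (median -0.44). With JQ1, 0 of the 7 were higher and 3 lower (median -0.12), beside 0 and 43 of the 72 (median -0.39). Over all genes, 43.1%, 37.6% and 37.6% were higher in these comparisons, and 35.9%, 37.6% and 36.3% lower. Just inside the limit, SNORD22 at 126 bases fell by 1.00 on the log2 scale with YAP/TAZ siRNA, and just outside it, SNORD46 at 104 bases fell by 1.54. Within the 7 long genes, the 4 that rose averaged 6.65 to 56.2 scaled RPM over all libraries. SNORD22, SNORD94 and SNORD15A averaged 4.27, 2.23 and 1.21. Length and abundance did not always go together, since SNORD49A and SNORD29, at 71 and 65 bases, averaged 11.7 and 10.8. Among members with a mean of at least 5 scaled RPM, 9 of 18 H/ACA genes were higher and 3 lower (median 0.22), and 4 of 13 C/D genes were higher and 7 lower (median -0.43). The part of length and of RNA recovery in this was not tested.

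**Figure D3:**
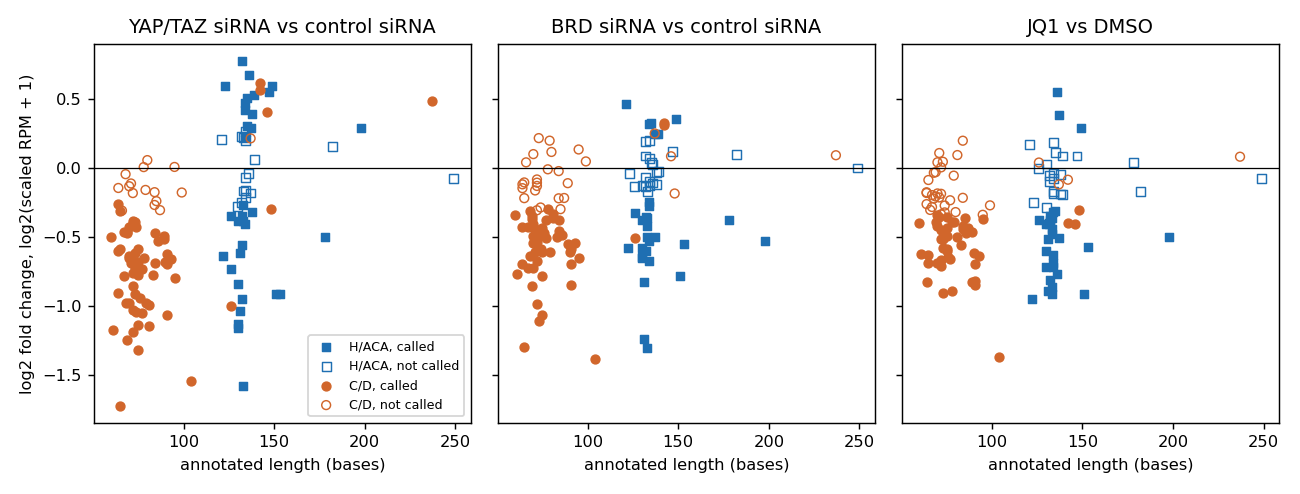
Log2 fold change of each snoRNA gene against its annotated length in bases, for YAP/TAZ siRNA and BRD siRNA against control siRNA and JQ1 against DMSO. Filled symbols passed the limma test. Short C/D genes (circles) lie mostly under 0 in each panel, and the C/D genes above 0 that passed are over 130 bases long.

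Of short structured RNA genes without a SNORA or SNORD symbol, fewer were called lower than higher in each of the 3 main comparisons. RNU86, an older symbol of the C/D snoRNA SNORD86, is among them, so the set is not free of snoRNAs. Of 48 tested genes, namely scaRNA and microRNA genes and those of the RNase P, RNase MRP, telomerase and RNU type, 25 were higher and 7 lower with YAP/TAZ siRNA (median log2 fold change 0.35), 22 and 4 with BRD siRNA (median 0.25), and 18 and 6 with JQ1 (median 0.23). These counts stand beside 43.1% higher and 35.9% lower of all genes with YAP/TAZ siRNA, 37.6% and 37.6% with BRD siRNA, and 37.6% and 36.3% with JQ1, where the share of these genes that was higher lay near that of all genes. The scaRNA genes, relatives of snoRNAs that act in Cajal bodies, were higher in 8 of 11 cases and lower in 0 with YAP/TAZ siRNA (median 0.51). Their summed level was 805 to 964 scaled RPM over the YAP/TAZ siRNA libraries, against 659 and 671 in control siRNA. The part of short-RNA content in the snoRNA results was not tested.

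BRD siRNA lowered most C/D genes, while the share of H/ACA genes called lower lay nearer that of all genes. Against control siRNA, 50 of 79 C/D genes were called lower and 2 higher (median log2 fold change -0.43), and 23 of 50 H/ACA genes were lower and 6 higher (median -0.13). Over all genes tested, 37.6% were called higher and 37.6% lower, with a median of -0.0047. The H/ACA median was 0.0033 after quantile normalization, where 13 members in place of 8 were called higher, and -0.49 with DMSO as the control. This comparison shares its 2 control siRNA libraries with the YAP/TAZ comparison, so the 2 are not independent. SNORD46 had 2.04, 2.13, 2.76 and 3.49 scaled RPM in BRD siRNA, against 8.74 and 7.89 in control siRNA, a log2 fold change of -1.39 (SE 0.127, adjusted p = 3.00e-09). SNORD29 fell by 1.30, and SNORD65, SNORD28 and SNORD27, guides for the small-subunit rRNA, fell by 1.11, 1.07 and 0.98 on the log2 scale. In the H/ACA class, SNORA76C fell by 1.30 and SNORA24, a small-subunit rRNA guide, by 1.24. The fall of SNORA76C was unequal, with 4.41 and 4.71 scaled RPM in mix A and 8.61 and 8.78 in mix B, against 17.1 and 17.2 in control siRNA. SNORA24 had 3.70, 2.62, 4.66 and 5.46 scaled RPM in BRD siRNA, against 10.4 and 11.1 in control siRNA. The rule for naming falls required this lack of overlap.

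The rises with BRD siRNA were small. SNORA32 averaged 10.0 ± 1.48 scaled RPM in BRD siRNA (SD, n = 4) and 6.94 ± 0.282 in control siRNA (SD, n = 2), a log2 fold change of 0.46 (SE 0.0953, adjusted p = 0.000179). It had 8.91 and 8.60 scaled RPM in mix A and 11.5 and 11.1 in mix B. SNORA57, SNORA48, SNORD10 and SNORD97 rose by 0.35, 0.32, 0.33 and 0.31 on the log2 scale, and SNORA67 by 0.25 (adjusted p = 0.0479). With DMSO as the control, SNORA57 stood at -0.14 (adjusted p = 0.101), SNORA67 at -0.079 (adjusted p = 0.520) and SNORD97 at -0.26 (adjusted p = 0.0262). Of all members, 3 in place of 8 were then called higher and 106 lower, beside 39.1% and 39.7% of all genes. SNORD10 and SNORD97 also lost their calls when libraries were scaled by their plain totals, with log2 fold changes of 0.21 (adjusted p = 0.126) and 0.19 (adjusted p = 0.118). SNORD97 no longer passed without control siRNA replicate 1 (adjusted p = 0.0850), nor SNORD10 without control siRNA replicate 2 (adjusted p = 0.145) or without BRD siRNA mix B replicate 1 (adjusted p = 0.0626). Without that last library 5 members were called higher.

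JQ1 lowered members of both classes. Against DMSO, 46 of 79 C/D genes were called lower and 0 higher (median log2 fold change -0.39), and 25 of 50 H/ACA genes were lower and 3 higher (median -0.32). Over all genes tested, 37.6% were called higher and 36.3% lower. SNORD46 again fell most, with 3.61 and 3.02 scaled RPM in JQ1, against 11.0 and 9.28 in DMSO (log2 fold change -1.36, SE 0.146, adjusted p = 3.61e-08). SNORA26 had 0.521 and 0.667 scaled RPM in JQ1, against 2.43 and 1.74 in DMSO (log2 fold change -0.95, SE 0.176). SNORA76C, SNORA6, SNORA24 and SNORA9 fell by 0.91, 0.91, 0.89 and 0.86, and SNORD65, SNORD1C, SNORD12B and SNORD12C by 0.91, 0.89, 0.84 and 0.83 on the log2 scale. In each of these genes both JQ1 libraries lay under both DMSO libraries, which the rule for naming falls required. The 3 genes that rose were SNORA80B (log2 fold change 0.55), SNORA67 (0.38) and SNORA57 (0.29), and none of the 3 passed without JQ1 replicate 1, with adjusted p of 0.0621, 0.122 and 0.0552.

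The knockdowns could also be set directly against each other, without the control. YAP/TAZ siRNA acted for 48 h and BRD siRNA for 72 h, so target and time cannot be told apart in this contrast. Between YAP/TAZ siRNA and BRD siRNA, 21 of 50 H/ACA genes were higher and 12 lower with YAP/TAZ siRNA, and 7 of 79 C/D genes were higher and 29 lower, beside 41.1% higher and 40.3% lower over all genes. SNORA74A, an H/ACA RNA, averaged 6.41 ± 1.30 scaled RPM in YAP/TAZ siRNA and 3.16 ± 0.327 in BRD siRNA (SD, n = 4 each), a log2 difference of 0.82 (SE 0.107). SNORA49, SNORA54 and SNORA63 differed by 0.78, 0.63 and 0.58, and SNORD110 and SNORD76 by -0.89 and -0.80. The JQ1 effect minus the YAP/TAZ siRNA effect, which uses separate controls, passed as positive for 18 and as negative for 5 of the 79 C/D genes, and as positive for 6 and negative for 18 of the 50 H/ACA genes, beside 30.9% and 32.4% of all genes. It was -1.44 for SNORA49 (SE 0.240), -1.12 for SNORA63 (SE 0.133) and -1.01 for SNORD97 (SE 0.158), and 1.23 for SNORD76 (SE 0.181) and 1.09 for SNORD29 (SE 0.155). The JQ1 effect minus the BRD siRNA effect passed as positive for 10 and negative for 12 of the 129 members, beside 30.2% and 29.9% of all genes. JQ1 acted for 24 h and BRD siRNA for 72 h.

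The 2 mixes against one target were compared directly. Between YAP/TAZ siRNA mix 1 and mix 2, 5 snoRNA genes were higher and 2 lower, beside 30.9% and 34.8% of all genes. Between BRD siRNA mix A and mix B, 0 were higher and 36 lower (median log2 difference -0.25), beside 25.7% and 24.3% of all genes. Against control siRNA, YAP/TAZ siRNA mix 1 alone gave 15 higher and 79 lower, beside 40.6% and 33.6% of all genes, and mix 2 alone 17 and 76, beside 42.7% and 35.7%. BRD siRNA mix A alone gave 5 higher and 73 lower, beside 37.2% and 36.1%, and mix B alone 10 and 53, beside 35.3% and 35.5%. Control siRNA itself differed from DMSO. In control siRNA 67 of the 129 genes were lower and 1 higher, beside 28.7% and 25.4% of all genes, with medians of -0.39 in the C/D class and -0.30 in the H/ACA class. SNORD12C had 2.77 and 2.35 scaled RPM in control siRNA, against 6.68 and 6.93 in DMSO (log2 fold change -1.14, SE 0.118). SNORA5A was the gene that was higher, at 2.93 and 2.77 scaled RPM in control siRNA, against 1.75 and 2.07 in DMSO. The labels give no harvest time for either control, so time, transfection and solvent cannot be told apart in this difference.

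The hosts below were chosen after the values were seen. In some of them most members were called in the same direction, and in others they parted. GAS5, a noncoding host, holds 10 C/D members of the table, and SNHG1 holds 8. All 10 in GAS5 (median log2 fold change -0.92) and all 8 in SNHG1 (median -1.07) were lower with YAP/TAZ siRNA, beside 35.9% of all genes. Most C/D genes of the table were called lower in each main comparison as well. With BRD siRNA 9 of the 10 in GAS5 (median -0.41) and 8 of the 8 in SNHG1 (median -0.82) were lower, beside 37.6% of all genes. With JQ1 8 of the 10 (median -0.46) and 6 of the 8 (median -0.37) were lower, beside 36.3% of all genes. The GAS5 gene itself had a log2 fold change of -0.46 with YAP/TAZ siRNA, -0.35 with BRD siRNA and, not called, -0.085 with JQ1, and SNHG1 had -1.46, -0.89 and -0.37. GAS5 had 89.6 and 83.0 scaled RPM in BRD siRNA mix A and 145 and 139 in mix B, against 143 and 141 in control siRNA, so mix B overlapped the control. In GAS5, SNORD44 had 2.91, 2.77, 3.74 and 3.26 scaled RPM in YAP/TAZ siRNA, against 9.22 and 7.58 in control siRNA, and SNORD76 had 3.32, 3.41, 3.78 and 3.85, against 9.33 and 8.91. Both genes were chosen after their values were seen.

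EIF4A1 holds SNORA48, SNORA67 and SNORD10. All 3 were higher with YAP/TAZ siRNA (median log2 fold change 0.50) and all 3 with BRD siRNA (median 0.32), and 1 of the 3 with JQ1. Over all genes 43.1%, 37.6% and 37.6% were higher in these comparisons. The BRD siRNA calls were fragile: SNORA67 (adjusted p = 0.0479) lost its call or reversed under 12 alternatives, among them leaving out control siRNA replicate 2 (adjusted p = 0.292), and SNORD10 lost its call in 4. Against DMSO, SNORA67 stood at -0.038 with YAP/TAZ siRNA (adjusted p = 0.753) and SNORD10 at 0.11 with BRD siRNA (adjusted p = 0.345). EIF4A1 itself was not analysed here. In EIF4A2, which encodes a related translation initiation factor, the members parted. SNORA63 rose with YAP/TAZ siRNA, while SNORA4, SNORA81 and SNORD2 from the same gene fell by 0.32, 0.50 and 0.47 on the log2 scale. EIF4A2 itself had a log2 fold change of 0.12 with YAP/TAZ siRNA. TAF1D holds 7 members, of which 0 were higher and 3 lower with YAP/TAZ siRNA (median -0.28) and 3 higher and 1 lower with BRD siRNA (median 0.22). The shares of all genes were 43.1% higher and 35.9% lower with YAP/TAZ siRNA, and 37.6% and 37.6% with BRD siRNA.

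**Figure D4:**
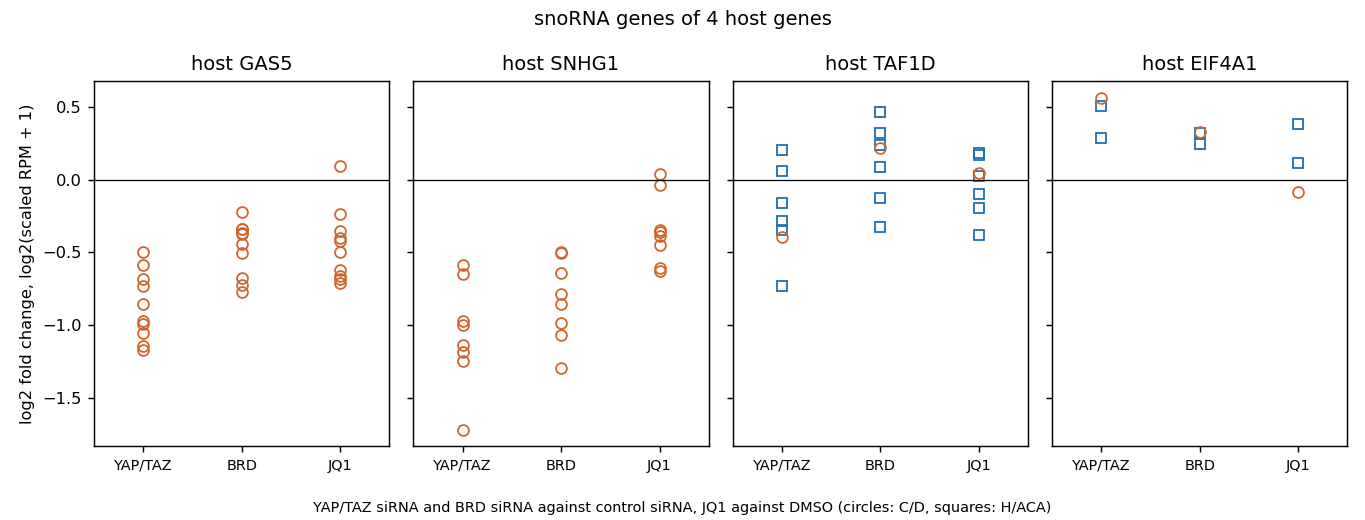
Log2 fold change of the snoRNA genes inside GAS5 (10 genes), SNHG1 (8), TAF1D (7) and EIF4A1 (3), with circles for C/D and squares for H/ACA genes, in the 3 main comparisons. All points of GAS5 and SNHG1 lie under 0 with either siRNA knockdown, and all points of EIF4A1 lie above 0 with either knockdown.

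Host and snoRNA could be set side by side for 119 members in 55 hosts. With YAP/TAZ siRNA, both fell in 62 pairs, the snoRNA fell while the host rose in 4, and the snoRNA rose while the host fell in 10. With BRD siRNA these counts were 47, 8 and 1, and with JQ1 31, 13 and 0. Of the 55 hosts, 45 were lower and 3 higher with YAP/TAZ siRNA, 24 and 12 with BRD siRNA, and 22 and 12 with JQ1. Over all genes 35.9%, 37.6% and 36.3% were lower. Since most hosts and most members were lower with YAP/TAZ siRNA, many joint falls would arise without a link between host and snoRNA. Such a link was not tested. Pearson's r between the log2 fold changes of host and snoRNA with YAP/TAZ siRNA was 0.39 over 75 C/D pairs and 0.10 over 44 H/ACA pairs, and Spearman's rho was 0.40 and 0.06. With BRD siRNA r was 0.35 in the C/D and 0.25 in the H/ACA pairs (rho 0.42 and 0.27). The order of the classes was the other way round with JQ1, where r was 0.15 and 0.47 (rho 0.047 and 0.42), and in control siRNA against DMSO, where r was 0.41 and 0.61 (rho 0.38 and 0.61). These describe genes of the same libraries that share hosts, and genes are not independent replicates. Members in noncoding hosts were lower in 36 of 43 cases with YAP/TAZ siRNA (median -0.68) and in 37 of 43 with BRD siRNA (median -0.51). GAS5 and SNHG1 alone hold 10 and 8 of these members. Members in ribosomal protein genes were lower in 27 of 42 (median -0.39) and 22 of 42 (median -0.32). Over all genes 35.9% and 37.6% were lower, and most members of the table were lower in both comparisons.

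**Figure D5:**
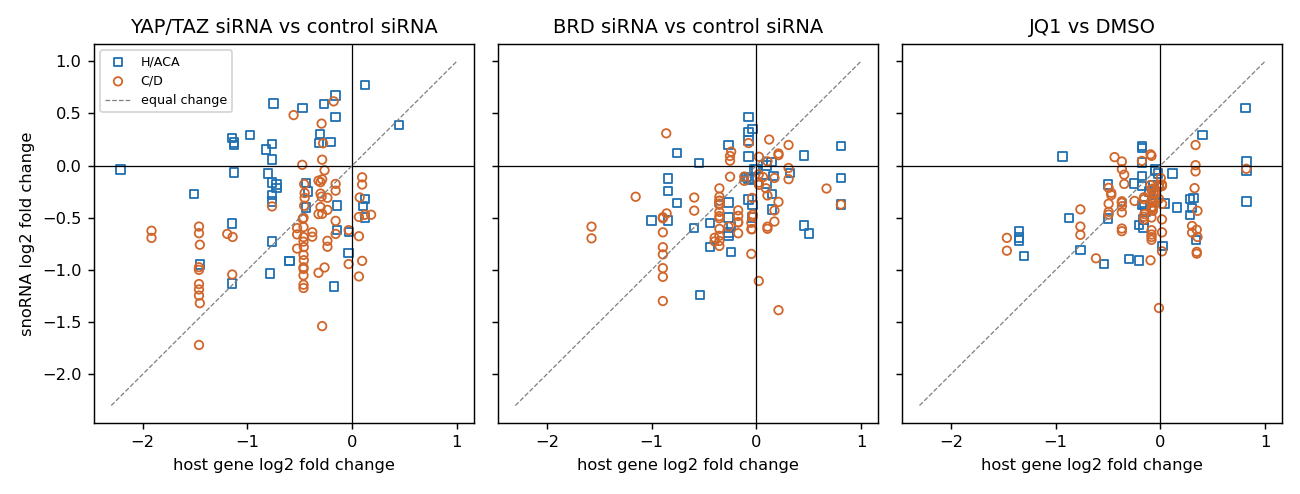
Log2 fold change of 119 snoRNA genes against that of their host gene in the 3 main comparisons, with H/ACA genes as squares, C/D genes as circles and the line of equal change dashed. With YAP/TAZ siRNA most points lie left of and under 0, and several H/ACA genes lie above 0 over hosts that fell.

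Genes for the proteins of both particles mostly fell. With YAP/TAZ siRNA, FBL, the methyltransferase of C/D particles, NOP56, NOP58 and NHP2L1 had log2 fold changes of -1.29, -1.45, -1.35 and -0.19, all 4 called lower (median -1.32). DKC1, the pseudouridine synthase of H/ACA particles, fell by 2.13, and GAR1, NHP2 and the assembly factor NAF1 by 1.02, 1.10 and 0.44, while NOP10 stood at 0.015 and was not called. NOP10 had 59.3 and 60.3 scaled RPM in YAP/TAZ siRNA mix 1 and 80.6 and 84.7 in mix 2, against 66.0 and 73.4 in control siRNA. NHP2L1 had 86.8 and 86.4 scaled RPM in mix 1 and 102 and 111 in mix 2, against 107 and 112 in control siRNA, so mix 2 overlapped the control. With BRD siRNA, 3 of the 4 C/D proteins were lower and 1 higher (median -0.63) and 3 of the 5 H/ACA proteins were lower and 1 higher (median -0.23). With JQ1, 4 of 4 and 5 of 5 were lower (medians -0.78 and -0.55). Of 25 genes of snoRNP assembly and processing, 23 were lower and 1 higher with YAP/TAZ siRNA, 16 and 5 with BRD siRNA, and 21 and 2 with JQ1. Over all genes, 35.9% were lower and 43.1% higher with YAP/TAZ siRNA, 37.6% and 37.6% with BRD siRNA, and 36.3% and 37.6% with JQ1. NOLC1 and TCOF1, nucleolar phosphoproteins, had log2 fold changes of -1.56 and -1.46 with YAP/TAZ siRNA, and TCOF1 fell by 1.98 with JQ1. Of a list of 18 host genes, noncoding except for TAF1D, 15 were lower and 1 higher with YAP/TAZ siRNA, 11 and 2 with BRD siRNA, and 10 and 4 with JQ1. SNHG3, SNHG7, SNHG9, SNHG10 and SNHG20 of this list were not found as hosts of any member analysed here. The median log2 fold change with YAP/TAZ siRNA was -0.16 over the H/ACA RNA genes and -1.02 over the H/ACA protein genes.

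Of the 129 members, 16 overlap an annotated exon of another gene. Of these, 13 were lower and 1 higher with YAP/TAZ siRNA, and of the 113 without such an overlap, 66 were lower and 17 higher. Over all genes 35.9% were lower and 43.1% higher. Whether counting used strand is not stated, so reads of such genes and their partners may be shared. SNORA71A, SNORA71C and SNORA71D are near copies of each other in SNHG17, and their separate values are uncertain.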

How the data were processed

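RNA-seq of 14 MDA-MB-231 libraries was analysed. Per the submitters' processing notes, the tools were CASAVA 1.8.4, TopHat2 2.0.5, HTSeq 0.6.0, edgeR and R 3.0.0, with build hg19. The sources used here do not give their order, annotation, strand setting or filter. The deposited values are named CPM, as the analysis plan assumed, but columns sum to 903627 to 1098052. They were therefore treated as a scaled signal (scaled RPM), normalised by the authors. The low values step in whole reads, and 100% of values came back as such, at 15741695 to 37311326 per library. There were 0 columns of other samples and 0 rows that name no gene.

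Values were analysed as log2(value + 1) for the 13674 genes with at least 1 in at least 2 libraries, in one limma 3.58.1 model (R 4.3.3) with a variance trend, 7 residual and 13.2 prior degrees of freedom, a median residual SD of 0.0852 and no replicate block. Tests were two-sided, with Benjamini-Hochberg adjustment over all genes within each comparison. The script was tested on simulated data with known changes. Replicates in every group differed by more than sampling noise. Where the text gives a siRNA without a mix, it is the mean of its 2 mixes.

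Hosts, lengths and sequences came from GENCODE 29 (GRCh38) by symbol for 114 members, and lengths of the other 15 from RefSeq. No coordinate was converted between builds. Members, gene lists and tests were chosen with earlier results of these data known. Named genes are SNORA74A, the 6 highest in each class, the up to 5 largest called rises and falls per class and main comparison with every treated library above, or every one below, the controls, their hosts and the listed proteins. Genes named for length, host or a difference between effects were chosen after their values were seen. Alternatives included edgeR 4.0.16 and DESeq2 1.42.0 on the recovered reads. Some sequences and host genes are not reported here.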

Additional observations from a re-analysis of the deposited data

How the results depend on the processing

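Over the 48 named results and their alternatives, 901 of 932 values kept direction and side of the threshold, 28 no longer passed and 3 reversed. The reversed ones were BRD siRNA against DMSO in place of control siRNA, at -0.14 for SNORA57, -0.079 for SNORA67 and -0.26 for SNORD97. The cause was not tested. SNORA67 with BRD siRNA lost its call or reversed under 12 alternatives.

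With a filter at 5 scaled RPM, 54 members were tested, so fewer were lower, 30 with YAP/TAZ siRNA, 33 with BRD siRNA and 33 with JQ1. With DMSO as the control, 7 were higher with YAP/TAZ siRNA and 3 with BRD siRNA. With BRD siRNA 4 were higher under plain total scaling, which moved the median of all genes to -0.11, 13 under quantile normalization and 5 with mix A alone. Leaving out 1 library gave 14 to 21 higher and 68 to 81 lower with YAP/TAZ siRNA, 5 to 9 higher and 56 to 76 lower with BRD siRNA, and 0 to 3 higher and 49 to 57 lower with JQ1; the 5 came without BRD siRNA mix B replicate 1 and the 0 without JQ1 replicate 1.

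Median log2 fold changes moved as follows. With YAP/TAZ siRNA the C/D median was -0.92 at a pseudocount of 0.25 and -0.25 at 4, -0.86 at the stricter filter, -0.92 after quantile normalization, -1.11 by edgeR, -1.16 by DESeq2 and -0.91 against DMSO, and the H/ACA median -0.083 at a pseudocount of 4, 0.21 at the stricter filter, -0.44 after quantile normalization and -0.25 by DESeq2. With BRD siRNA the C/D median was -0.58 at a pseudocount of 0.25 and -0.21 at 4, -0.27 after quantile normalization, -0.65 by edgeR, -0.66 by DESeq2, -0.28 with mix B alone and -0.75 against DMSO, and the H/ACA median -0.23 under plain total scaling, 0.0033 after quantile normalization, -0.22 by DESeq2, -0.23 with mix A alone, -0.49 against DMSO and -0.23 to -0.13 with 1 library left out. With JQ1 the C/D median was -0.20 at a pseudocount of 4, -0.53 by edgeR and -0.57 by DESeq2, and the H/ACA median -0.19 at a pseudocount of 4 and -0.40 by DESeq2. The medians by edgeR and DESeq2, without 1 library, with 1 mix and against DMSO were chosen after seeing the data.

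Replicate numbers were not taken as pairs, since deviations of same-numbered libraries correlated at -0.37 to 0.25. The snoRNA sums nevertheless were higher in replicate 1 in every siRNA group and in both classes. In control siRNA they were 343 and 311 scaled RPM in the C/D class and 351 and 332 in the H/ACA class. In DMSO replicate 2 was higher in both classes, and in JQ1 the classes differed. The source of this shift was not tested. With the replicate block, 19 members were higher and 79 lower with YAP/TAZ siRNA, 9 and 74 with BRD siRNA, and 3 and 74 with JQ1. Each group holds 2 libraries, and a value of 1 rests on as few as 16.6 reads, so changes of low members are imprecise.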
